A study of Mus musculus with 8 samples.

Results

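The 10 genes described here are the factor NRF2 (Nfe2l2), its inhibitor Keap1 and 8 genes of antioxidant defence (Hmox1, Nqo1, Gclc, Gclm, Txnrd1, Srxn1, Prdx1 and Sod2). They were chosen by gene symbol, as NRF2 with its inhibitor and antioxidant targets, from the 29955 gene names listed in each library, and all 10 were found. All 10 passed the filter on low values in each comparison, a mean of at least 1 over its libraries. Bulk RNA-seq was made from 2 bone marrow populations of wild type (WT) and Ripk3-/- mice, with 2 libraries in each of 4 groups. LSK cells (lineage-negative, Sca1+ and Kit+) hold stem cells and multipotent progenitors, and LK cells (lineage-negative and Kit+, and by the study's text Sca1-negative) hold mostly committed myeloid progenitors. Ripk3, the deleted gene, encodes a kinase of necroptosis, and the labels call these mice Ripk3-KO and name no transgene or Cre. All groups share the strain, written CD57BL6/J in the labels. The sample labels list no treatment, whereas the study's text places the RNA-seq cells a month after the last of several low doses of X-rays, and this holds for all groups alike. The age of the mice, the number of mice behind a library and whether the replicates came from separate mice are not given in the sources used here, so that p-values measure only the spread between libraries.

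NRF2 is a basic leucine zipper factor that pairs with small MAF proteins and binds antioxidant response elements near its target genes. KEAP1 holds NRF2 in the cytoplasm and hands it to the CUL3 ubiquitin ligase, and oxidants or electrophiles that modify KEAP1 cysteines let NRF2 build up in the nucleus. In blood-forming cells, where reactive oxygen species rise as stem cells leave quiescence, these targets make glutathione, reduce thioredoxin and peroxiredoxins and clear heme and quinones. NRF2 is controlled largely at the level of protein, which RNA levels do not show.

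The sequences just before the transcription start are shown for Srxn1, Prdx1 and Gclm, which carry different forms of the element. RefSeq (GRCm38.p6) gave a promoter for 8 of the 10 members, all but Hmox1 and Gclc. Txnrd1 had 3, and each covered 250 bases before and 50 after the start. The motifs searched on both strands were the core of the antioxidant response element (TGACNNNGC), the element of NRF2-type and small MAF dimers (TGANTCAGC), and the AP-1 site (TGANTCA), which every TGANTCAGC contains. Capitals mark a match to either of the first 2 motifs, on either strand.
Srxn1, chr2:152105274-152105523, plus strand: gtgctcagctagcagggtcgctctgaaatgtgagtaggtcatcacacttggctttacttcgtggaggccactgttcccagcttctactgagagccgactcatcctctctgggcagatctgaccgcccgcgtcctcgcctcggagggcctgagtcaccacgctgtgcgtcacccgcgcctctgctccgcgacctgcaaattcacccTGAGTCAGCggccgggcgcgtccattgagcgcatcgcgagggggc
Prdx1, chr4:116685349-116685598, plus strand: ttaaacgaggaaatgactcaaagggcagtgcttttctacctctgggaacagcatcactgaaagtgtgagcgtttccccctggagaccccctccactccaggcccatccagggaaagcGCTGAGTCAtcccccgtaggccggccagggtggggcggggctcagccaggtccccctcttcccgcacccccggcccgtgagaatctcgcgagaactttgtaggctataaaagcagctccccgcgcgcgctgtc
Gclm, chr3:122245307-122245556, plus strand: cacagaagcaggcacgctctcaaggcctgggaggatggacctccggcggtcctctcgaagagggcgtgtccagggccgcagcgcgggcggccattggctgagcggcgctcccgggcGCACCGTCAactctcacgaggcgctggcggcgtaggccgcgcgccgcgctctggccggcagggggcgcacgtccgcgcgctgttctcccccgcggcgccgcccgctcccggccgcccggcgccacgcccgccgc
In Srxn1 the capitals run from position -45 to -37 relative to the start and spell TGAGTCAGC on the gene's strand. In Prdx1 they run from -133 to -125, on the other strand, and match both motifs. The Gclm match, from -134 to -126, fits only the core. Nfe2l2 itself has a core match from -240 to -232, and the second Txnrd1 promoter has one from -92 to -84. The Keap1, Nqo1 and Sod2 promoters and the other Txnrd1 promoters hold neither of the first 2 motifs. Of the 10 promoters of these 8 members, 5 hold the core, against 12.4% of 32851 mouse promoters, and 2 (Srxn1 and Prdx1) hold TGANTCAGC, against 1.19%. The AP-1 letters occur in 7.81% of all promoters. Srxn1 has an AP-1 match of its own from -102 to -96 and Prdx1 from -237 to -231. The Srxn1 window also has a core match at 28 to 36 bases after the start, outside the stretch shown. These matches describe letters in a window and not binding.

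The 8 libraries held 9782166 to 16280811 reads that could be recovered from the deposited values, and 18254 to 20358 genes above 0. Levels below are CPM, the reads of a gene as a part of the library's total, scaled together over the 8 libraries by TMM. The genotype tests used the deposited signal, which has the same unit but was scaled by the authors for LSK and LK separately. Ripk3 stood at 143 and 147 CPM in WT LSK and 164 and 169 in WT LK, against 2.99 and 0.941 in Ripk3-/- LSK and 18.4 and 12.2 in Ripk3-/- LK. The LSK libraries summed to 2146 to 3278 CPM over 9 sort and stem-progenitor markers, against 968 to 1099 in LK. The 6 myeloid progenitor markers summed to 4890 to 7675 in LSK against 56989 to 83313 in LK. Within LSK, the stem-progenitor sum was 2191 and 2146 CPM in WT and 3278 and 2892 in Ripk3-/- cells. The myeloid progenitor sum was 6761 and 7675 in WT LSK and 6318 and 4890 in Ripk3-/- LSK. Over 7 lymphoid markers, WT LSK summed to 268 and 252 CPM and Ripk3-/- LSK to 451 and 398, although 5 of the 6 tested had fold changes below 0. The part of these differences in the LSK genotype values was not tested. Xist was present and 4 Y-linked genes were at 0 in the 4 WT libraries, whereas the Ripk3-/- libraries held Y-linked reads, so sex and genotype cannot be told apart here. Over 9 late neutrophil markers, the sum was 614 and 672 CPM in WT LSK but 2031 and 2380 in Ripk3-/- LSK, and 920 and 906 in WT LK but 1947 and 1961 in Ripk3-/- LK. None of these markers was at 0 in any library. In each population 8 of 9 were higher in Ripk3-/- cells without overlap, against 21.4% of all genes in LSK and 20.1% in LK. In sorted bulk cells, fewer cells of a type and less RNA per cell cannot be told apart.

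Per kilobase of the longest coding transcript, Prdx1 was the most abundant member in all 4 groups, with group means of 256 to 366 CPM per kb. Prdx1 is a peroxiredoxin that reduces hydrogen peroxide. Nfe2l2 came next, with 56.8 to 76.3 CPM per kb. Sod2, Txnrd1 and Gclm ranged from 14.5 to 46.5 CPM per kb over the groups. In Ripk3-/- cells the mean of Keap1 (18.8 CPM per kb in LSK and 20.2 in LK) stood above that of Gclm (17.7 and 14.5). The lower end of the order differed between the populations. In WT LSK, Srxn1 (13.7 CPM per kb) stood above Keap1 (11.8), Nqo1 (9.17), Hmox1 (8.22) and Gclc (5.06), values whose neighbours did not differ beyond the spread between libraries. In WT LK, Srxn1 (3.22 CPM per kb) and Hmox1 (2.50) were the lowest, and Gclc stood at 18.8.

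**Figure D1:**
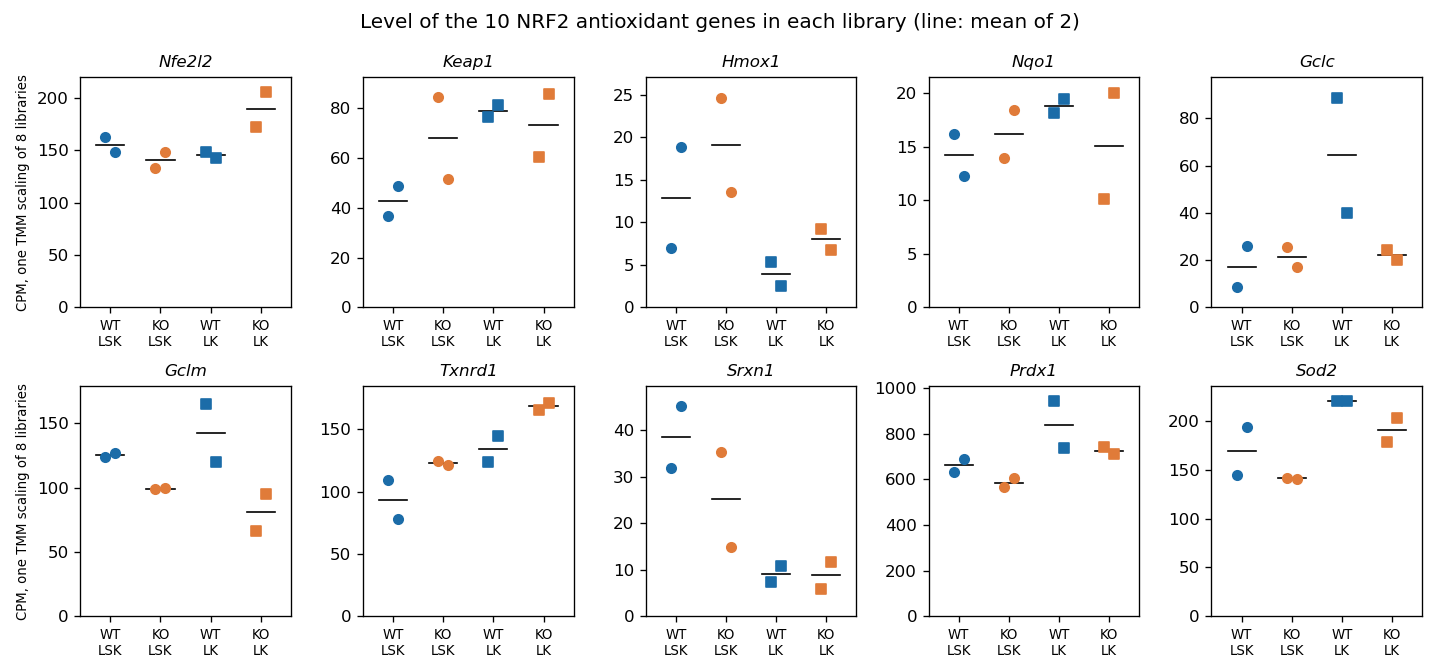
CPM (scaled together over the 8 libraries by TMM, linear axes from 0) of each of the 10 members in WT (blue) and Ripk3-/- (orange) libraries of LSK (circles) and LK cells (squares), with each point 1 library and each line the mean of 2. Srxn1 is at 14.9 to 45.1 CPM in the LSK libraries and at 5.91 to 11.7 in the LK libraries, and the first WT LK library stands apart for Gclc at 88.8 CPM.

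The first comparison asked whether loss of Ripk3 was accompanied by other levels of these genes within each population. No member passed the test in either population (limma, Benjamini-Hochberg adjusted p of at least 0.05 for all 10). Across all genes tested, 2.16% were called in LSK and 0.473% in LK. At an unadjusted p under 0.05, limma gave 1 member in LSK (Keap1), against 3011 of 16817 genes in all. In LK it gave 2 members (Gclc and Gclm), against 915 of 13949. By edgeR's quasi-likelihood test 0 members were called in either population, and DESeq2 called 0 in LSK and 1 in LK (Gclm). Over all genes, edgeR called 237 of 16817 in LSK and 60 of 13949 in LK, and DESeq2 called 613 and 177. Both Ripk3-/- libraries lay above both WT libraries for 2 members in LSK and 3 in LK, against 21.4% and 20.1% of all genes. They lay below for 3 and 4 members, against 23.2% and 19.9%. The median log2 fold change of signal over the members was 0.01 in LSK, beside -0.01 over all genes, and -0.17 in LK, beside 0.01. Both values moved with single libraries. The median in LSK was -0.16 without the first WT LSK library, and that in LK was 0.09 without the first and -0.34 without the second Ripk3-/- LK library.

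For the factor itself, Nfe2l2, the CPM was 162 and 149 in WT LSK, 133 and 149 in Ripk3-/- LSK, 148 and 143 in WT LK, and 172 and 206 in Ripk3-/- LK. The genotypes overlapped in LSK, and both Ripk3-/- libraries were higher in LK. The log2 fold change of signal was -0.15 (SE 0.19, limma adjusted p 0.726) in LSK. In LK it was 0.36 (SE 0.19, adjusted p 0.815), with a 95% interval of -0.04 to 0.76.

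Keap1, whose product marks NRF2 for degradation, stood at 36.8 and 48.6 CPM in WT LSK and at 84.3 and 51.5 CPM in Ripk3-/- LSK. Both Ripk3-/- LSK libraries were above both WT libraries, but they differed from each other by more than the gap between the groups. The log2 fold change of signal was 0.63 (SE 0.28, limma adjusted p 0.245), and 0.28 without the first and 0.97 without the second Ripk3-/- LSK library. In LK, Keap1 was at 76.5 and 81.2 CPM in WT and at 60.5 and 85.5 CPM in Ripk3-/- cells, which overlap. The counting strand is not given in the sources used here, and Keap1 shares exon sequence with the antisense gene Gm16754.

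Among the enzymes that act on heme and quinones, Hmox1, which opens the heme ring, was at 6.97 and 18.8 CPM in WT LSK and 24.6 and 13.5 CPM in Ripk3-/- LSK. In LK it was at 5.34 and 2.50 CPM in WT and 9.22 and 6.76 CPM in Ripk3-/- cells. Only the LK groups did not overlap. The log2 fold changes of signal were 0.62 (SE 0.56, limma adjusted p 0.594) in LSK and 0.89 (SE 0.56, adjusted p 0.861) in LK. Nqo1, a quinone reductase and a common readout of NRF2 activity, was at 12.3 to 18.5 CPM in the 4 LSK libraries and 10.1 to 20.0 CPM in the 4 LK libraries. Its genotypes overlapped in both populations, with log2 fold changes of signal of 0.17 (SE 0.43) and -0.38 (SE 0.44).

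The 2 subunits of glutamate-cysteine ligase, which makes the first and limiting step of glutathione, gave the lowest values of the list in LK. Gclm, the modifier subunit, was at 165 and 120 CPM in WT LK and at 66.3 and 95.3 CPM in Ripk3-/- LK. Both Ripk3-/- libraries were below both WT libraries. For Gclm in LK, the log2 fold change of signal was -0.83 (SE 0.23, 95% interval -1.30 to -0.35, limma adjusted p 0.168). DESeq2 gave -0.84 with an adjusted p of 0.0346, and over the 16 alternatives the adjusted p ran from 0.0346 to 1. In LSK, Gclm was at 123 and 127 CPM in WT and 98.5 and 99.5 CPM in Ripk3-/- cells, again without overlap, with a log2 fold change of -0.34 (SE 0.23, limma adjusted p 0.452).

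Gclc, the catalytic subunit, was at 88.8 and 40.1 CPM in WT LK and at 24.4 and 20.2 CPM in Ripk3-/- LK. Both WT libraries were higher, and they also differed from each other by more than 2-fold. Its log2 fold change of signal was -1.39 (SE 0.45, 95% interval -2.32 to -0.46, limma adjusted p 0.315). It was -0.84 (adjusted p 1) without the first WT LK library and -1.95 (adjusted p 0.131) without the second. A fit of the 4 LK libraries alone called Gclc, with a limma adjusted p of 0.0273. In LSK, Gclc was at 8.72 and 25.9 CPM in WT and 25.5 and 16.9 CPM in Ripk3-/- cells, which overlap. Transcripts of Gclm share up to 287 bases with Ppia and stretches of over 200 bases with pseudogenes. The reads of Gclm are uncertain to that extent, whereas no near-identical copy of Gclc was found. Summed over 9 erythroid markers, WT LK stood at 1975 and 1777 CPM and Ripk3-/- LK at 1321 and 1391 CPM. Of the 9, 7 were lower without overlap, against 19.9% of all genes, and none was at 0. The part of this difference in the Gclc and Gclm values was not tested.

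In the thioredoxin and peroxiredoxin branch, Txnrd1, which reduces thioredoxin with NADPH, was at 109 and 78.0 CPM in WT LSK and at 124 and 121 CPM in Ripk3-/- LSK. In LK it was at 124 and 144 CPM in WT and 166 and 171 CPM in Ripk3-/- cells. The Ripk3-/- libraries were higher without overlap in both populations. The log2 fold changes of signal were 0.40 (SE 0.21, limma adjusted p 0.326) in LSK and 0.32 (SE 0.21, adjusted p 0.872) in LK. The LSK value of Txnrd1 was 0.64 without the first WT LSK library and 0.16 without the second. Srxn1, which repairs overoxidised peroxiredoxins, was at 31.8 and 45.1 CPM in WT LSK and at 35.3 and 14.9 CPM in Ripk3-/- LSK, which overlap. Its log2 fold change of signal was -0.70 (SE 0.47, limma adjusted p 0.449) in LSK and -0.09 (SE 0.47) in LK, and that in LSK was -1.29 without the first and -0.11 without the second Ripk3-/- library. Prdx1 was at 634 and 690 CPM in WT LSK and at 567 and 606 CPM in Ripk3-/- LSK, without overlap. In LK, Prdx1 was at 942 and 737 CPM in WT and 740 and 711 CPM in Ripk3-/- cells, which overlap on this scale but not by signal, where 653 in WT stands just above 652. Its log2 fold changes of signal were -0.18 (SE 0.15) and -0.21 (SE 0.16), with limma adjusted p of 0.574 and 0.890. Transcripts of Prdx1 share up to 597 bases with 3 pseudogenes.

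Sod2, the mitochondrial superoxide dismutase, was at 145 and 194 CPM in WT LSK and at 142 and 140 CPM in Ripk3-/- LSK. In LK it was at 220 CPM in both WT libraries and at 178 and 203 CPM in Ripk3-/- cells. The Ripk3-/- libraries were lower without overlap in both populations, in LSK by a gap smaller than that between the WT libraries. The log2 fold changes of signal were -0.25 (SE 0.19, limma adjusted p 0.521) in LSK and -0.22 (SE 0.19, adjusted p 0.909) in LK. Transcripts of Sod2 share up to 3110 bases with Rps6ka2.

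**Figure D2:**
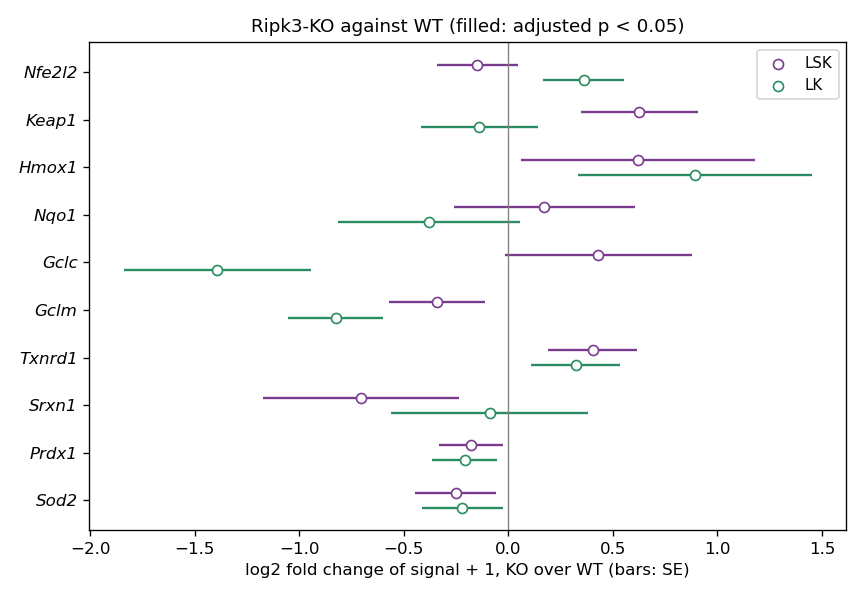
Log2 fold change of signal + 1, Ripk3-/- over WT, for the 10 members in LSK (purple) and LK cells (green), with bars for the SE of the limma fit. All points are open because no member has an adjusted p under 0.05, and the lowest are Gclc at -1.39 and Gclm at -0.83 in LK.

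Whether the genotype effect differed between the populations was tested by the interaction. No member was called by limma, against 0.358% of all genes. An unadjusted p under 0.05 was found for 1 member (Gclc), against 1613 of 15901 genes in all. Neither edgeR nor DESeq2 called a member, against 54 and 155 of all 15901 genes. The largest difference was that of Gclc, with a log2 fold change of signal that was 1.82 higher in LSK than in LK (SE 0.63, 95% interval 0.51 to 3.13, limma adjusted p 0.309). Over the 15 alternatives the Gclc difference ran from 1.08 to 2.56. For Keap1 the difference was 0.76 (SE 0.39, limma adjusted p 0.528) and for Nfe2l2 -0.51 (SE 0.27, adjusted p 0.545).

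The second comparison asked how the levels differ between LSK and LK cells of one genotype. In WT, limma called 3 of the 10 members, with Srxn1 higher in LSK and Gclc and Keap1 lower, against 23.9% of all genes (9.16% higher and 14.8% lower). edgeR also called 3 members in WT, against 2895 of 15950 genes. DESeq2 called 4, with Hmox1 besides these 3, against 3731 of 15950 genes. In Ripk3-/- cells limma called 1 member, Srxn1, which was higher in LSK, against 20.2% of all genes (7.95% higher and 12.2% lower). In WT, 3 members were higher and 6 lower in LSK without overlap of the libraries, against 32.8% and 31.2% of all genes, and in Ripk3-/- cells 3 and 4, against 27.5% and 30.1%. The median log2 fold change of CPM over the members was -0.36 in WT, beside 0.08 over all genes, and -0.11 in Ripk3-/- cells, beside 0.00. Both signs turned under quantile normalization, to 0.09 in WT and 0.03 in Ripk3-/- cells. In WT the median was -0.23 without the first WT LSK library. The Ripk3-/- median was -0.30 without the first and 0.08 without the second Ripk3-/- LSK library, and -0.29 without the first and -0.05 without the second Ripk3-/- LK library. The split of all calls in WT, 1461 higher and 2353 lower, was 954 and 964 after quantile normalization.

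Srxn1 was at 31.8 and 45.1 CPM in WT LSK and at 7.28 and 10.9 CPM in WT LK. All LSK libraries stood above all LK libraries, in both genotypes. In WT the log2 fold change of CPM was 1.97 (SE 0.47, 95% interval 0.99 to 2.95, limma adjusted p 0.0044). It was 1.73 (adjusted p 0.0683) without the second WT LSK library and 1.71 (adjusted p 0.0705) without the first WT LK library. In Ripk3-/- cells, Srxn1 was at 35.3 and 14.9 CPM in LSK and at 5.91 and 11.7 CPM in LK. The log2 fold change was 1.36 (SE 0.47, 95% interval 0.39 to 2.33, limma adjusted p 0.0436), and the call rested on single libraries. It was 0.76 (adjusted p 0.386) without the first Ripk3-/- LSK library and 0.92 (adjusted p 0.310) without the first Ripk3-/- LK library. Leaving out the first or the second WT LSK library, which enters only through the shared spread, gave 1.36 with adjusted p of 0.0527 and 0.0569. Prdx1, which carries the same TGANTCAGC letters before its start and whose product Srxn1 repairs, had log2 fold changes of CPM of -0.33 (SE 0.16, limma adjusted p 0.128) in WT and -0.31 (SE 0.16, adjusted p 0.191) in Ripk3-/- cells.

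Gclc was at 8.72 and 25.9 CPM in WT LSK and at 88.8 and 40.1 CPM in WT LK. The WT groups did not overlap, and the libraries of each group differed by more than 2-fold. Its log2 fold change of CPM was -1.91 (SE 0.45, 95% interval -2.84 to -0.99, limma adjusted p 0.0036). It was -1.18 (adjusted p 0.0866) without the first WT LSK library and -1.35 (adjusted p 0.141) without the first WT LK library. In Ripk3-/- cells the LSK and LK libraries overlapped, and the log2 fold change was -0.09 (SE 0.45, limma adjusted p 0.925). Its partner Gclm had -0.17 (SE 0.23, limma adjusted p 0.615) in WT and 0.31 (SE 0.23, adjusted p 0.390) in Ripk3-/- cells.

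Keap1 was lower in WT LSK than in WT LK, at 36.8 and 48.6 against 76.5 and 81.2 CPM. The gap between the groups was wider than that within either. For Keap1 in WT, the log2 fold change of CPM was -0.88 (SE 0.28, limma adjusted p 0.0259), and quantile normalization gave -0.53 (adjusted p 0.229). Without the first WT LSK library it was -0.69 (adjusted p 0.156), without the first WT LK library -0.93 (adjusted p 0.117) and without the second -0.84 (adjusted p 0.120). In Ripk3-/- cells Keap1 overlapped between the populations, with a log2 fold change of -0.12 (SE 0.28, limma adjusted p 0.816).

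The other members did not pass the test between the populations. Hmox1 was higher in LSK without overlap in both genotypes, with log2 fold changes of CPM of 1.42 (SE 0.56, limma adjusted p 0.0695) in WT and 1.12 (SE 0.56, adjusted p 0.177) in Ripk3-/- cells. DESeq2 called Hmox1 in WT, at 1.78 with an adjusted p of 0.0317, and without the first WT LSK library the limma value was 2.07, with an adjusted p of 0.0350. Txnrd1 was lower in LSK without overlap in both genotypes, at -0.53 (SE 0.21, limma adjusted p 0.0743) in WT and -0.45 (SE 0.21, adjusted p 0.151) in Ripk3-/- cells. Without the first WT LSK library the WT value was -0.77, with an adjusted p of 0.0347. Sod2, lower in LSK without overlap in both genotypes, had -0.39 (SE 0.20, limma adjusted p 0.147) and -0.43 (SE 0.20, adjusted p 0.140). Under quantile normalization Sod2 in WT stood at 0.11 and Prdx1 at 0.07 in WT and 0.12 in Ripk3-/- cells, the opposite direction. Nfe2l2 was at 0.09 (SE 0.20, limma adjusted p 0.751) in WT, where the lower LSK library and the higher LK library differed by less than 1 CPM, and at -0.42 (SE 0.20, adjusted p 0.146) in Ripk3-/- cells. Nqo1 had log2 fold changes of -0.39 (SE 0.44) in WT and 0.16 (SE 0.44) in Ripk3-/- cells.

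**Figure D3:**
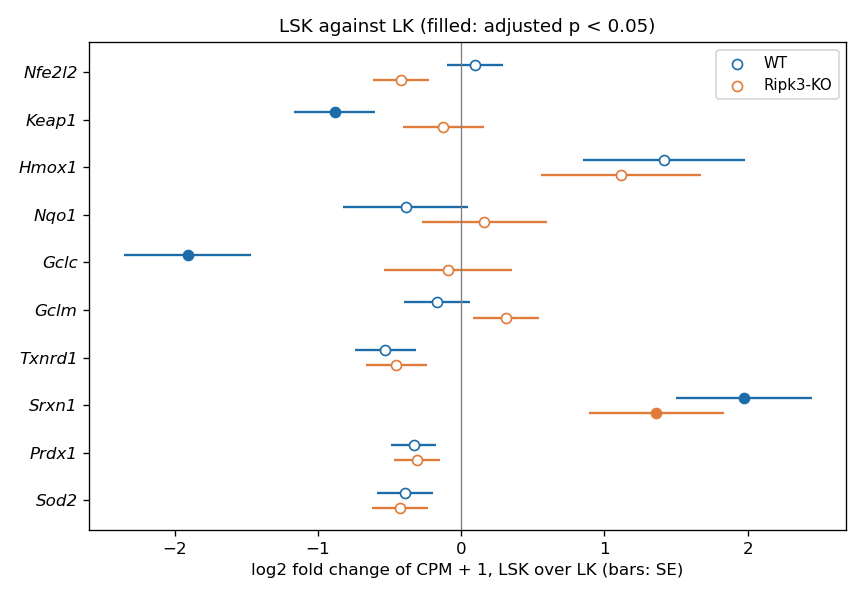
Log2 fold change of CPM + 1, LSK over LK, for the 10 members in WT (blue) and Ripk3-/- cells (orange), with bars for the SE of the limma fit and filled points for an adjusted p under 0.05. The filled points are Srxn1 (1.97), Gclc (-1.91) and Keap1 (-0.88) in WT and Srxn1 (1.36) in Ripk3-/- cells.

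A wider list of 86 genes of the same pathway, in 7 groups, was described next to the members. Of its 85 genes tested in LSK, 3 were higher and 2 lower in Ripk3-/- than in WT cells by limma, against 0.892% and 1.27% of all genes. The median log2 fold change of signal was -0.04, beside -0.01 over all genes. Ftl1, the ferritin light chain that stores iron, fell from 2942 and 3539 CPM in WT LSK to 1866 and 1630 CPM in Ripk3-/- LSK. The gap between the groups was wider than that within either. Its log2 fold change of signal was -0.89 (SE 0.15, limma adjusted p 0.0019), and the call was lost without the second WT LSK library (-0.76, adjusted p 0.115) or the second Ripk3-/- LSK library (-0.80, adjusted p 0.0692). Gstp1, a glutathione transferase, fell from 168 and 179 CPM to 105 and 83.5 CPM. Both Ripk3-/- libraries were far below both WT libraries. The log2 fold change was -0.89 (SE 0.20, limma adjusted p 0.0192). It was -0.93 (adjusted p 0.0763) without the first WT LSK library, -0.85 (adjusted p 0.113) without the second, and -0.74 (adjusted p 0.157) without the second Ripk3-/- LSK library. Reads of Ftl1 and Gstp1 can be shared with near-identical pseudogenes and, for Gstp1, with Gstp2.

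The 3 genes that were higher in Ripk3-/- LSK were Ncf1, Slc40a1 and Btrc. By edgeR, Ftl1, Gstp1 and Ncf1 were called (adjusted p 0.0023 to 0.0283) but not Slc40a1 (0.107) or Btrc (0.119), and DESeq2 called each. Fitted to the LSK libraries alone, limma called Ftl1 (adjusted p 0.000504) but not Gstp1 (0.0587), Ncf1 (0.133), Slc40a1 (0.202) or Btrc (0.158). Without a filter on low values, limma called neither these 3 genes nor Ftl1 or Gstp1 (adjusted p 0.117 to 0.352). Ncf1, an organising subunit of the phagocyte NADPH oxidase, rose from 46.8 and 47.7 CPM to 111 and 74.4 CPM, with a log2 fold change of signal of 0.93 (SE 0.22, limma adjusted p 0.0255). The call was lost without the first Ripk3-/- LSK library (0.65, adjusted p 0.184), either WT LSK library (adjusted p 0.0969 and 0.107) or either Ripk3-/- LK library (adjusted p 0.0605 and 0.0604). Exons of Ncf1 overlap those of Gtf2ird2 on the other strand. The late neutrophil markers, given above, were also higher in both Ripk3-/- LSK libraries, and their part in the Ncf1 value was not tested. Slc40a1, the iron exporter ferroportin and 1 of the 10 macrophage markers, rose from 2.79 and 9.82 CPM to 17.9 and 20.7 CPM. Both Ripk3-/- libraries were higher, and the WT libraries differed from each other by more than 3-fold. The log2 fold change was 1.68 (SE 0.43, limma adjusted p 0.0430), and 0.91 (adjusted p 0.243) without the first WT LSK library. Leaving out any other single library except the second WT LSK library also lost the call (adjusted p 0.0680 to 0.193). The macrophage markers, Slc40a1 included, summed to 85.8 and 81.1 CPM in WT LSK and to 102 and 86.9 CPM in Ripk3-/- LSK. These sums hold the rise of Slc40a1 itself and do not show one of the other markers. Of the 10, 2 were higher without overlap in Ripk3-/- LSK and 2 lower, against 21.4% and 23.2% of all genes. Btrc, a subunit of a second ubiquitin ligase for NRF2, had 3 and 3 reads in WT LSK and 80 and 53 in Ripk3-/- LSK, with a log2 fold change of 2.38 on the signal + 1 scale (SE 0.61, limma adjusted p 0.0448). The Btrc call was lost in each of the 8 settings that leave out 1 library (adjusted p 0.0763 to 0.140), and with the replicate number as a block (adjusted p 0.0579), among other settings.

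In LK, limma called 0 of 82 pathway genes between the genotypes, edgeR called 0 and DESeq2 3, all lower. Of all 13949 genes, DESeq2 called 135 lower. An unadjusted p under 0.05 was found for 14 of the 82, against 915 of 13949 genes in all, and a fold change below 0 for 58, against 6830 of 13949. Without overlap of the libraries, 30 of the 82 were lower in Ripk3-/- LK, where 19.9% of all genes were, and 10 were higher, where 20.1% were. The median log2 fold change of signal was -0.19, beside 0.01 over all genes, and -0.04, with 46 of 81 below 0, without the first Ripk3-/- LK library. The 2 groups with the lowest medians were glutathione synthesis and use (-0.25, 14 of 20 genes below 0) and the thioredoxin and peroxiredoxin group (-0.24, 12 of 14). Medians of the other groups ran from -0.21 (superoxide and peroxide removal) to -0.03 (NADPH oxidase). The values of Ftl1 and Gstp1 in LK were -0.48 (SE 0.16, limma adjusted p 0.325) and -0.57 (SE 0.20, adjusted p 0.400). In the interaction 0 of 84 pathway genes were called by limma, 0 by edgeR and 0 by DESeq2. Of the 84, 7 had an unadjusted p under 0.05, against 1613 of 15901 genes in all. The genotype effects of Ftl1, Gstp1, Ncf1, Slc40a1 and Btrc were thus not shown to differ between LSK and LK (limma adjusted p 0.407 to 0.730).

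Between the populations, limma called 7 pathway genes higher and 28 lower in LSK of 82 tested in WT, where 9.16% of all genes were called higher and 14.8% lower. It called 12 higher and 25 lower of 85 in Ripk3-/- cells, where 7.95% and 12.2% of all genes were. With 1 library left out, 3 to 7 were higher and 22 to 29 lower in WT, and 6 to 12 higher and 18 to 25 lower in Ripk3-/- cells, with the fewest higher without the first WT LK and the first Ripk3-/- LK library. After quantile normalization the counts were 11 higher and 18 lower in WT and 14 and 20 in Ripk3-/- cells. The median log2 fold changes of CPM were -0.30 and -0.17, beside 0.08 and 0.00 over all genes, and 0.00 and 0.02 after quantile normalization. All tested NADPH supply genes had fold changes below 0, and limma called 5 of 6 lower in LSK in WT and 6 of 7 in Ripk3-/- cells. Quantile normalization left 5 called in each genotype. The 6 NADPH oxidase genes were also all below 0, with 5 called in WT and 4 in Ripk3-/- cells, and with 2 and 3 called after quantile normalization. In the glutathione group limma called 3 higher and 8 lower of 21 in WT, and 4 and 9 of 22 in Ripk3-/- cells. Gsr, glutathione reductase, was at 122 and 106 CPM in WT LSK and 786 and 526 CPM in WT LK. Its log2 fold change of CPM was -2.49 (SE 0.20, limma adjusted p 8.85e-09) in WT and -1.76 (SE 0.20, adjusted p 1.18e-06) in Ripk3-/- cells. Gstm1, a glutathione transferase, had -1.83 (SE 0.17) and -2.01 (SE 0.17), and can share reads with Gstm2, Gstm3 and Gstm6. Idh1, Pgd and G6pdx, which make NADPH in the cytosol, had -1.87 (SE 0.21), -1.55 (SE 0.18) and -1.59 (SE 0.19) in WT. In Ripk3-/- cells they had -2.50 (SE 0.21), -1.82 (SE 0.18) and -1.68 (SE 0.19). Reads of G6pdx can be shared with G6pd2, over a match of up to 2332 bases, and its exons overlap those of Ikbkg on the other strand. Ncf1 had -2.20 (SE 0.22) and -1.44 (SE 0.22). Gsr, Gstm1, Idh1, Pgd, G6pdx and Ncf1 were called in each genotype under each of the alternatives run. In each of these 6 genes the LSK libraries were below all LK libraries of the same genotype. The 6 myeloid progenitor markers, given above, were all called lower in LSK in both genotypes, where 14.8% and 12.2% of all genes were, and their part in these values was not tested.

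**Figure D4:**
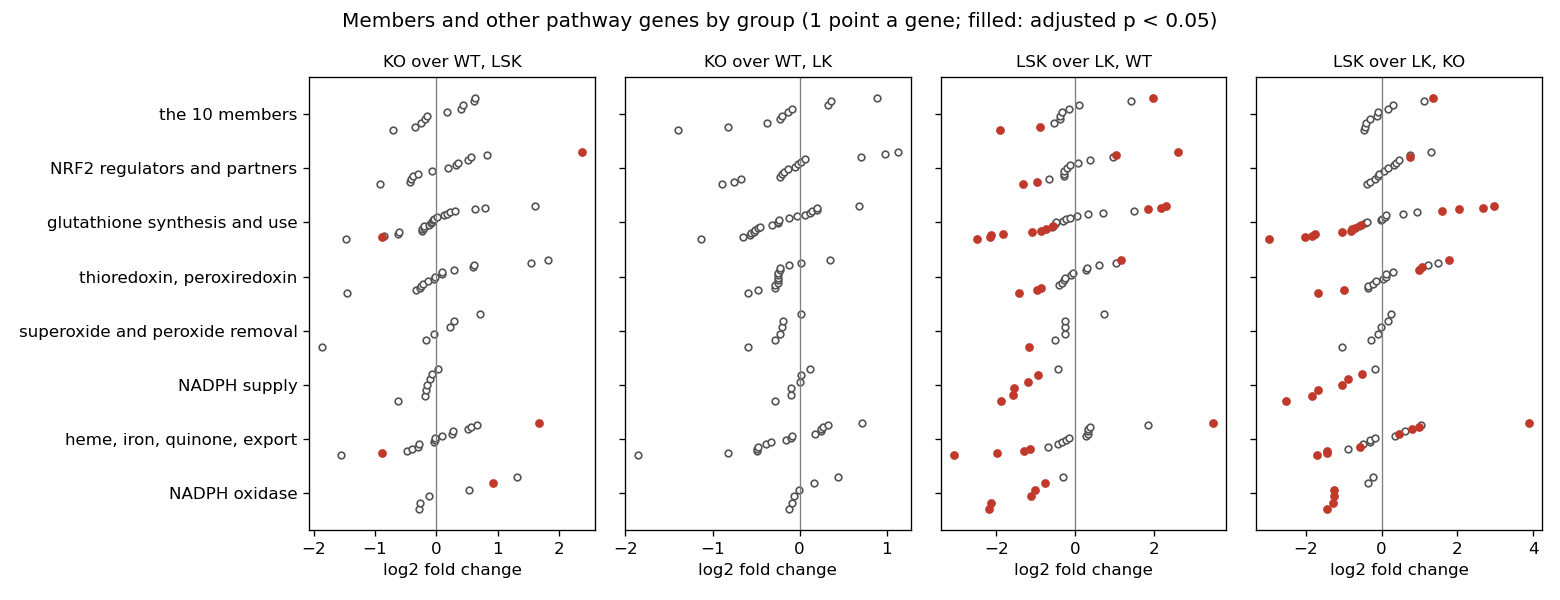
Log2 fold changes of the 10 members and of the wider pathway list by group, 1 point a gene, for Ripk3-/- over WT (signal + 1) in LSK and LK and for LSK over LK (CPM + 1) in WT and Ripk3-/- cells, with filled points for a limma adjusted p under 0.05 and a separate x range in each panel. The NADPH supply and NADPH oxidase points lie below 0 in both LSK over LK panels, and in the LK genotype panel all points are open.

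By Pearson's r of log2(CPM + 1) over the 8 libraries, with each population centred on its own mean, the genes most like Nfe2l2 among 15757 were Slc6a12 (r = 0.994), Pcyox1l (0.987) and Rfx8 (0.973). The points share libraries and depth. The 3 genes were taken as those with the highest r, so the size of r is not a test. Slc6a12 was at 0 CPM in the first Ripk3-/- LSK library and at 0.0861 CPM in the second WT LK library, where Rfx8 was at 0. Pcyox1l, which like Nfe2l2 was highest in Ripk3-/- LK, was at 66.5 and 92.9 CPM there and at 56.1 and 49.8 CPM in WT LK, while Slc6a12 and Rfx8 stood below 6 CPM in all libraries.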

How the data were processed

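RNA was sequenced with a stranded poly(A) kit. TopHat and mm9 are named in the submitters' processing notes, and the counting tool is not given in the sources used here. The authors deposited 1 signal value per gene and library under a heading that names FPKM. Every library's values proved to be whole multiples (100% of those above 0, tolerance 0.01) of 1 step (0.0621 to 0.104 signal), and the library factors these steps imply equalled TMM factors (edgeR 4.0.16) of each population. The deposited signal is therefore TMM-scaled CPM, not divided by length, and whole reads were recovered. A fold change near the depth limit of 3 reads (0.213 to 0.273 CPM) is uncertain. Levels are CPM of these reads with TMM factors over all 8 libraries.

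Tests were two-sided limma 3.58.1 fits (R 4.3.3, lmFit and eBayes with a trend, 4 group means) on log2(value + 1), with Benjamini-Hochberg adjustment over all genes with a mean of at least 1 in the contrast, on signal within and on CPM between populations. Fold changes on this scale understate those of low genes. Exact permutation of 2 against 2 libraries cannot give a p below 0.333. Alternatives were 0.1 as the pseudocount, a minimum mean of 5 or none, edgeR and DESeq2 1.42.0 on the recovered reads, only the libraries of a contrast, quantile normalization, a replicate block, and each library left out in turn. In simulated LSK libraries (15036 genes, KO against WT), limma recovered 25.0%, 42.2% and 74.0% of genes changed 2-, 4- and 8-fold. In simulated LK libraries (15004 genes) it recovered 17.2%, 40.9% and 90.0%. Replicates correlated at 0.929 to 0.968 and differed beyond counting noise. The members and lists were chosen with earlier results of these data known. All members are named, with pathway genes called between genotypes, the 5 with the smallest p in each population contrast, and the 3 most like Nfe2l2. Older symbols were matched (Msrb1 as Sepx1, Adgre1 as Emr1), and Ly6g and Hba-a1 were not matched. Positions and near-identical transcripts (BLAST 2.17.0, 90% over 200 bases) are from GENCODE M21.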

Additional observations from a re-analysis of the deposited data

Results flagged for a closer look

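Nfe2l2 was singled out because its levels in LSK and LK stood in opposite order in the 2 genotypes, with both LSK libraries above both LK libraries in WT and below them in Ripk3-/- cells. The difference of its genotype effect between LSK and LK was -0.51 on the log2 scale, and the interaction did not pass the test (limma adjusted p 0.545). In WT the order rests on 149 against 148 CPM for the nearest libraries.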

How the results depend on the processing

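With 2 libraries a group, calls depended on the setting, and except where the setting itself has fewer libraries the cause was not tested. Without a filter, all genes called were 185 (LSK genotype), 20 (LK genotype), 1249 (WT populations) and 1038 (Ripk3-/- populations), with 0 members in either population comparison. edgeR called 237 genes in LSK, and DESeq2 613 in LSK, 177 in LK with 1 member, and 155 for the interaction. Fits of only the libraries compared called 195 genes in LSK, 125 in LK with 1 member, and 0 members for Ripk3-/- populations. Quantile normalization called 36 genes in LK, 1918 for WT populations and 0 members for Ripk3-/- populations, and a pseudocount of 0.1 also left 0 members there. With 1 library left out, the remaining library of its group being taken to vary like the others, calls ranged from 99 to 262 in LSK, 13 to 101 in LK, 17 to 90 for the interaction, 1502 to 4116 for WT populations with 0 to 3 members, and 1489 to 3163 for Ripk3-/- populations with 0 to 1 members. The replicate block gave 317, 64, 53, 3598 and 2940 calls in the 5 comparisons with 0, 0, 0, 3 and 1 members. It was not taken as a pairing, because replicate differences correlated at -0.149 to 0.0538 between groups. A crossed block for Ripk3-/- populations, chosen after seeing the data, called 3196 genes and 1 member. Neither block changed a member's call, the replicate block lost the Btrc call (adjusted p 0.0579), and no called value of a member changed its direction under any alternative run.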
